A study of Homo sapiens with 18 samples.

Results

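The cells compared here were HCC4006 cells kept in erlotinib, with or without knockdown of Notch1. HCC4006 is an established line from a human lung adenocarcinoma that carries an activating EGFR mutation, and erlotinib is a tyrosine kinase inhibitor (TKI) of EGFR. Cells had received Notch1 siRNA (N1) or non-targeting control siRNA (NTC) and were then held in 0.1 µM erlotinib, for 5 days by the labels and somewhat longer by the text of the study. Each of these groups had 3 arrays, so the comparison rests on 6 of the 18 arrays of the series. The remaining arrays hold N1 and NTC cells in DMSO, the vehicle, and cells with Notch3 siRNA (N3) in either treatment, again 3 arrays for each group. The study looked for transcripts that respond to loss of Notch3, and it used Notch1 knockdown to set aside those that loss of Notch1 moves the same way. Its methods list 1 siRNA for Notch1, so the effect of losing Notch1 and any other effect of that siRNA cannot be told apart. Nothing says that the arrays of a group came from separate cultures, so p values measure only the spread between these arrays, which may be technical. The RNA is that of whole cultures, in which fewer cells with a transcript and less of it in each cell cannot be told apart.

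Expression was read from GeneChip Human Transcriptome Array 2.0 chips, and the deposited values are log2 expression from robust multi-array average (RMA). The comparison takes in every gene with an array feature that names this gene alone, which gave 22465 genes from 23781 of the 70523 features. Features that exceeded the median of their own array on 3 or more of the 18 arrays were tested, and for each gene the feature of the highest mean was used, which left 16336 genes. Differences were estimated with limma, a linear model that shares the spread between genes, over the 6 group means. The Benjamini-Hochberg adjustment covered all 16336 genes, and a gene was called at an adjusted p under 0.05. A second, stricter call used the thresholds of the study's Methods, an unadjusted p under 5e-04 with a fold change of at least 2. Median log2 values over all features ran from 4.94 to 4.99 in the 6 arrays. Correlations across features ran from 0.9924 to 0.9959 between arrays of one group and from 0.9904 to 0.9947 between N1 and NTC arrays. The number of arrays limits the precision. All 10 epithelial and lung markers checked, among them EPCAM, KRT8 and NKX2-1, lay above the noise filter, with array medians from 9.41 to 9.5 with NTC and from 9.52 to 9.59 with N1. Of the markers with a feature, 4 of 9 leukocyte, 4 of 9 fibroblast and 4 of 8 endothelial ones passed that filter. Their array medians ran from 4.23 to 4.58, 3.8 to 4.03 and 4.44 to 4.6 with NTC. With N1 they ran from 4.34 to 4.4, 3.85 to 3.92 and 4.52 to 4.62. Levels differed within these lists. The leukocyte marker PTPRC stayed between 2.68 and 2.85 in all 6 arrays, while COL1A2 of the fibroblast list had means of 6.98 with NTC and 6.7 with N1.

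Notch receptors are activated by Delta-like and Jagged ligands on neighboring cells. Cuts by an ADAM sheddase and γ-secretase turn the bound receptor into a transcriptional coactivator that works with RBPJ and Mastermind-like proteins. Among the genes so induced are the HES and HEY repressors. In the lung, Notch signaling is known for directing the choice between secretory and ciliated fates. The NOTCH1 feature did not show a clear loss of the target in erlotinib. It read 6.67, 6.67 and 6.65 in the NTC arrays and 6.62, 6.59 and 6.54 in the N1 arrays on the log2 scale. All N1 arrays lay below all NTC arrays, but limma gave a log2 fold change of only -0.08 (adjusted p = 0.214, standard error 0.04). In DMSO the same feature read 6.87, 6.78 and 6.88 with NTC and 6.63, 6.5 and 6.5 with N1, a log2 fold change of -0.30 (adjusted p = 0.000291). The loss of NOTCH1 transcript was thus called in DMSO and not in erlotinib, and the difference between the effects was 0.22 (adjusted p = 0.0284). That last call was lost with arrays centered on their median (adjusted p = 0.0557), with the model limited to the arrays compared (adjusted p = 0.0733, or 0.0656 with a replicate block) and on leaving out any of 7 arrays in turn. Protein is not part of these arrays, and the western blots by which the study checked the knockdown were not analysed here. The study reports that those blots showed specific knockdowns of Notch1 and Notch3 that looked complete.

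Other receptors and ligands moved little, and those that passed the test were higher with N1. Of the 9 receptor and ligand genes tested, 3 rose and none fell, against 11.9% of all genes tested that rose and 9.15% that fell. JAG1, a Notch ligand, read 7.73, 7.72 and 7.72 with NTC and 8.0, 8.12 and 7.97 with N1, a rise of 0.31 on the log2 scale (adjusted p = 0.00108). NOTCH3 rose from 6.97 ± 0.06 (SD, n = 3 arrays) to 7.22 ± 0.09 (SD, n = 3), which is 0.25 (adjusted p = 0.00818). The ligand gene DLL1 rose by 0.20 (adjusted p = 0.00564). NOTCH2 had a log2 fold change of 0.13 (adjusted p = 0.0519), and NOTCH4, DLL3, DLL4 and JAG2 had values between 0.07 and 0.14 with adjusted p values of 0.112 or more. Among the 9 tested repressors and feedback genes downstream of Notch, only HEYL passed, at 0.19 (adjusted p = 0.0426), and it too missed the threshold with arrays centered on their median (adjusted p = 0.0502). NRARP, a feedback inhibitor of Notch, had the highest log2 fold change of that list at 0.45, yet its NTC arrays read 4.83, 4.58 and 4.09 against 5.12, 4.92 and 4.81 with N1, so the groups overlapped (adjusted p = 0.0583). HES1, the best known target, had 0.07 (adjusted p = 0.457), and the lowest value of the list was -0.04. Of 22 enzymes and nuclear partners of the pathway, NCSTN, a subunit of γ-secretase, rose by 0.14. The sheddase gene ADAM10 fell by 0.20 on the log2 scale, APH1B, another γ-secretase subunit, fell by 0.16 and POGLUT1, which glucosylates Notch, fell by 0.22.

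Over all genes, N1 in erlotinib gave many small differences and few large ones. At an adjusted p under 0.05, 1944 genes were higher with N1 (11.9%) and 1495 were lower (9.15%), 21.1% in either direction. The median absolute log2 fold change of these called genes was 0.23, and 151 of them reached a fold change of 1.5, 88 higher and 63 lower. At the thresholds of the study's Methods, 11 genes were higher (0.0673%) and 4 were lower (0.0245%). Arrays of the groups did not overlap for 3414 genes with N1 higher (20.9%) and for 2351 with N1 lower (14.4%). The 11 genes higher at the strict thresholds were OAS2, IFI44L, IFIT1, XAF1, RSAD2, HIF1A-AS2, LAMP3, ABI3BP, OAS3, IL7R and SAMD9L. Of these, 7 belong to the lists of interferon-induced effectors and RNA sensors. The 4 lower genes were UGT2B17, UGT2B15, ITGA11 and PSG8. Counts of list members called in erlotinib, given below, are to be read against the shares of 11.9% higher and 9.15% lower.

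**Figure D1:**
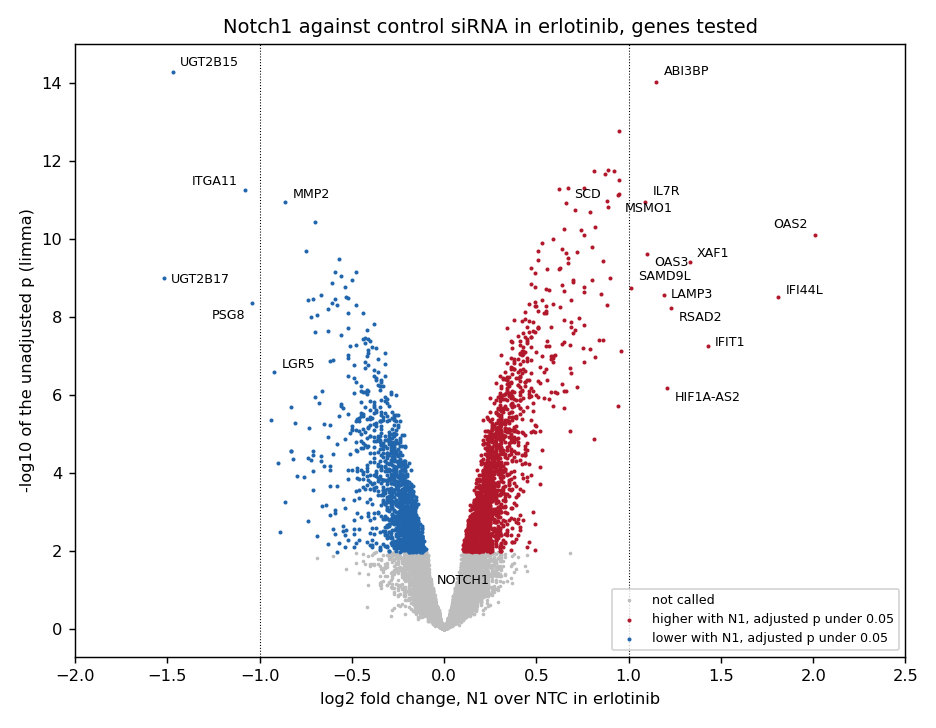
Log2 fold change of N1 over NTC in erlotinib (x axis) against -log10 of the unadjusted limma p (y axis) for the 16336 genes tested, with called genes in red (1944 higher) and blue (1495 lower) and dotted lines at a fold change of 2. Interferon-induced genes such as OAS2 (2.01) and IFI44L (1.81) lie farthest to the right, UGT2B17 (-1.52) and UGT2B15 (-1.47) farthest to the left, and NOTCH1 (-0.08) is not called.

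Interferons are secreted when cells sense foreign nucleic acids, and they act through Janus kinases, STAT factors and IRF factors on genes that carry an interferon-stimulated response element. The products restrict viruses, sense or degrade their RNA and raise antigen presentation. The 3 promoters of this group are printed here because the genes are the highest effectors with N1 in erlotinib whose promoter in the table used holds the response element core, searched on both strands as GAAA, any 2 bases and GAAA again. Each window runs from 250 bases before to 50 after a RefSeq start site on the plus strand (GRCh38.p14), and capitals mark the matches. The windows are chr1:78620198-78620497 for IFI44L, with matches that begin 164 and 73 bases before the start, chr10:89392373-89392672 for IFIT1, with matches at 116 and 103 bases, and chr2:6877527-6877826 for RSAD2, with a match at 145 bases.
IFI44L: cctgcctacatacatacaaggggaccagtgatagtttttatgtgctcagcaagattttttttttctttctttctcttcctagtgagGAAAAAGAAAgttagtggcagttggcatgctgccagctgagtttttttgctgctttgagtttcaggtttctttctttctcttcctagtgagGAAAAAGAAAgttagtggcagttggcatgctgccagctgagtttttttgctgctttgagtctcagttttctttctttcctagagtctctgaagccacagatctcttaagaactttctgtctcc
IFIT1: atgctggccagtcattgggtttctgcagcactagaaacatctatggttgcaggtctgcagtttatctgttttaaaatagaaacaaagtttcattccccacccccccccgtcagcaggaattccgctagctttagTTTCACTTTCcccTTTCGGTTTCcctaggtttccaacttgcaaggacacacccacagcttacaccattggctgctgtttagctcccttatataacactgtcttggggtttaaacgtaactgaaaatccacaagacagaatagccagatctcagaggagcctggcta
RSAD2: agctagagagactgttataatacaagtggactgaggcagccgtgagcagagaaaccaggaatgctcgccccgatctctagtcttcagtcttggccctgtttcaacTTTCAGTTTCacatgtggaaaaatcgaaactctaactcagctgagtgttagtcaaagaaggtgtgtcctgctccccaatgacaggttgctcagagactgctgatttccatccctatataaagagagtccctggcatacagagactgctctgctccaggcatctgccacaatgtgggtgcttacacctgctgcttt
The core was found for 29 of the 36 tested interferon effectors in the promoter table (80.6%), counting a gene if any of its listed starts held it. The share was 3.56% of the 11669 tested genes in the table and 3.57% of all 35116 windows. Among the effectors that rose with N1 and are in the table, 26 of 32 held it. For MHC class I and antigen processing genes it was 11 of 16 (68.8%), and for RNA sensors 5 of 10 (50%). A match describes the letters in the window and is not evidence of binding.

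Most interferon-induced effectors rose. Of 45 tested, 40 rose, 1 fell and 4 did not pass, with a median log2 fold change of 0.44 against 0.03 over all genes tested. IFI44L, whose promoter with its repeated core is shown above, encodes a GTPase-related antiviral protein. It read 6.10, 5.38 and 5.94 with NTC and 7.62, 7.61 and 7.63 with N1. The N1 arrays lay close together, well above the more scattered NTC arrays, and the rise was 1.81 (standard error 0.16, adjusted p = 7.28e-07). IFIT1, which binds viral RNA that lacks the host cap methylation, read 4.88, 4.62 and 4.78 with NTC and 6.26, 6.28 and 6.02 with N1. That is a rise of 1.43 (standard error 0.15, adjusted p = 5.94e-06). The NTC readings lay below the medians of their arrays, so the size of the rise is less certain. RSAD2 encodes viperin, an antiviral enzyme of the endoplasmic reticulum and lipid droplets, and it went from 6.52, 6.33 and 6.34 to 7.70, 7.67 and 7.50. The groups were far apart relative to their spread, at 1.23 (adjusted p = 1.07e-06). XAF1, a pro-apoptotic partner of XIAP, rose by 1.33 (adjusted p = 1.6e-07), from 6.64 ± 0.15 to 7.97 ± 0.13 (SD, n = 3 arrays each). SAMD9L, an antiviral factor that restrains growth, rose by 1.01 from 8.10 ± 0.09 to 9.11 ± 0.06 (SD, n = 3, adjusted p = 4.64e-07). Smaller rises were those of IFI44 (0.94), MX1 (0.86), IFI6 (0.81), USP18 (0.75), IFIT3 (0.68), ISG15 (0.41) and IFITM3 (0.34). GBP2, ISG20, LGALS3BP and SP100 did not pass, with values from -0.02 to 0.14. The exception was TRIM5, a restriction factor for retroviral capsids, which read 7.37, 7.39 and 7.36 with NTC and 7.2, 7.18 and 7.27 with N1 and fell by 0.16 (adjusted p = 0.0158). That call was lost with the model limited to the arrays compared.

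**Figure D2:**
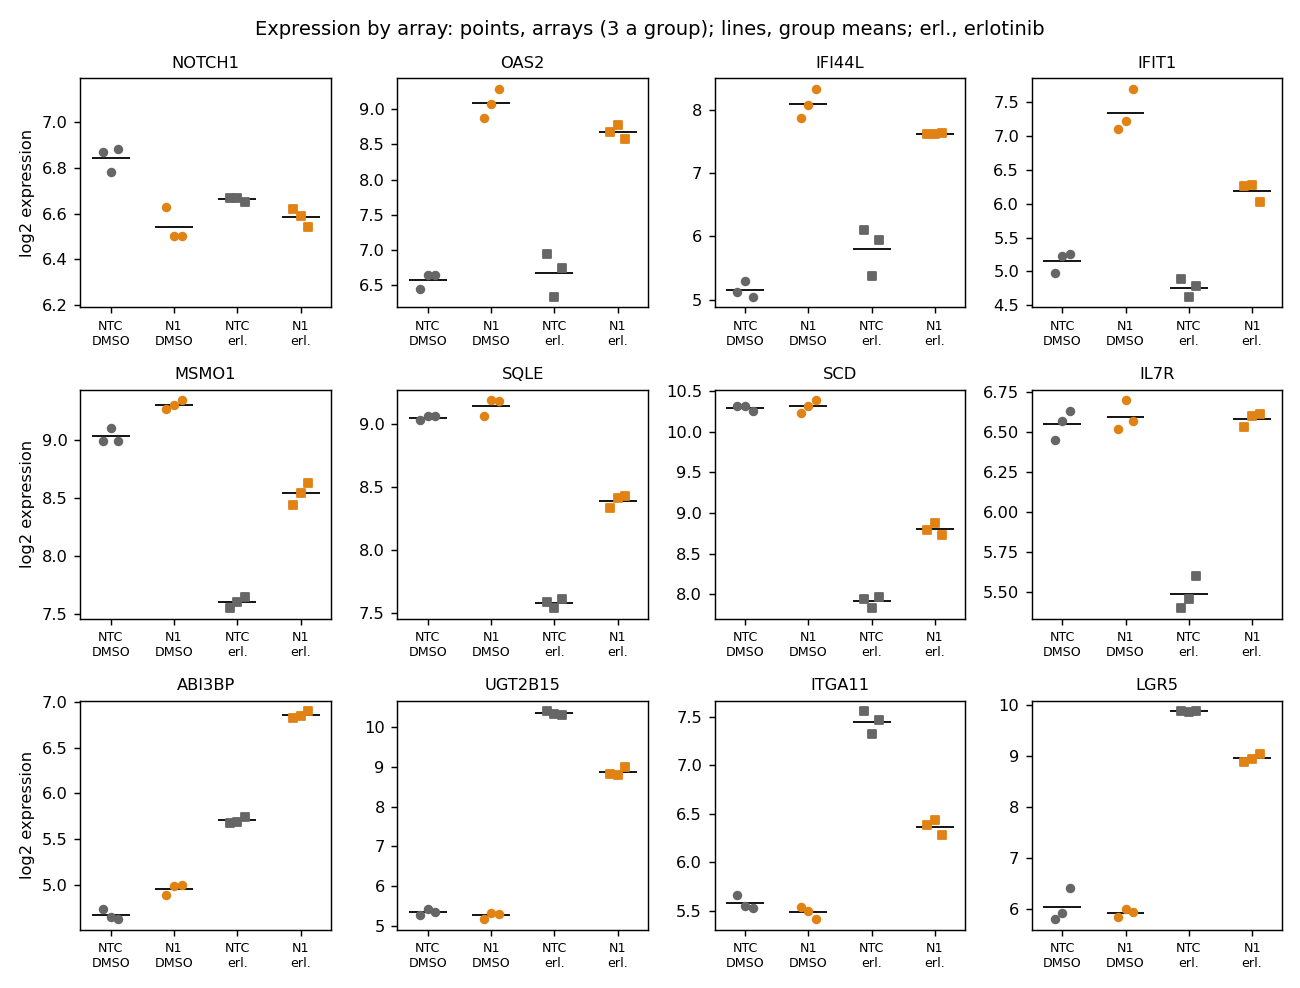
Log2 expression (y axis, its range set for each panel) of 12 genes in single arrays of 4 groups, NTC and N1 in DMSO (circles) and in erlotinib (squares), with a line at each group mean. In erlotinib the N1 arrays of OAS2 (8.57 to 8.78), MSMO1 (8.44 to 8.63) and IL7R (6.53 to 6.61) all lie above the NTC arrays, and those of UGT2B15 (8.80 to 8.99) and ITGA11 (6.28 to 6.44) all lie below.

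The sensors of foreign RNA and DNA rose as well, 14 of 17 with none lower and a median of 0.33. OAS2 had the highest log2 fold change of all genes tested. This synthetase makes oligoadenylates that activate RNase L. It read 6.94, 6.33 and 6.74 with NTC and 8.68, 8.78 and 8.57 with N1, so the lowest N1 array was far above the highest NTC array. The rise was 2.01 (standard error 0.14, adjusted p = 4.99e-08), a fold change of 4.02. Its relatives OAS3 and OAS1 rose by 1.10 and 0.88, and OASL by 0.64. The helicase IFIH1, which detects long double-stranded RNA, rose by 0.76 from 6.98 ± 0.07 to 7.74 ± 0.05 (SD, n = 3, adjusted p = 1.17e-05). RIGI, the helicase for short RNA ends, rose by 0.49 and EIF2AK2, the kinase that halts translation on double-stranded RNA, by 0.33. STING1, the adaptor of cytosolic DNA sensing, rose by 0.47 (adjusted p = 6.1e-06). IFI16, MAVS and TRIM21 did not pass, with values from 0.02 to 0.13.

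Fewer of the interferons, receptors and transcription factors upstream passed the test. IFNB1, IFNA1 and IFNG lay below the noise filter and were not tested. IFNB1 read 2.75, 3.11 and 2.36 with NTC and 2.78, 2.76 and 2.87 with N1, with the N1 arrays inside the range of the NTC arrays. IFNE, an interferon of epithelia, was tested, but it passed the noise filter only through arrays in DMSO. In erlotinib it read 4.47, 4.21 and 4.53 with NTC and 3.88, 3.48 and 3.73 with N1. Limma gave a log2 fold change of -0.71 (adjusted p = 0.00343). These readings in erlotinib all lay below the medians of their arrays, so they say little about an effect on IFNE there. Receptor genes rose slightly, IFNGR1 by 0.18, IFNGR2 by 0.15 and IFNAR2 by 0.14, while IFNAR1 had 0.03. Of 15 IRF factors, STAT factors, Janus kinases and SOCS inhibitors, 5 rose and none fell. These were SOCS3 (0.36), IRF7 (0.30), IRF1 (0.28), STAT3 (0.25) and TYK2 (0.22).

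Of 19 MHC class I and antigen processing genes tested, 13 rose and none fell, with a median of 0.27. TAP1, which pumps peptides into the endoplasmic reticulum with TAP2, read 6.63, 6.54 and 6.66 with NTC and 7.19, 7.2 and 7.02 with N1. It rose by 0.53 (adjusted p = 9.38e-06) and TAP2 by 0.43 (adjusted p = 1.13e-05). The immunoproteasome subunit PSMB10 rose by 0.35, and the class I heavy chain HLA-B by 0.37. HLA features share probes between alleles and related genes, so a value given for HLA-B may include others. B2M, the light chain, had 0.11 and did not pass. Of the NF-κB targets and cytokines, 11 of 17 were higher and 1 was lower, with a median of 0.36. ICAM1, an adhesion molecule for leukocytes, read 8.75, 8.76 and 8.68 with NTC and 9.57, 9.62 and 9.45 with N1, a rise of 0.82 (standard error 0.05, adjusted p = 3.64e-08). TNFAIP2 rose by 0.70, the feedback inhibitor TNFAIP3 by 0.65 and the monocyte chemokine CCL2 by 0.49. The subunits NFKB1 (0.45) and NFKB2 (0.43) and the cytokine IL6 (0.44) were also higher. IL18 was the member that fell, by 0.32 on the log2 scale, and CXCL8 had -0.12 and did not pass.

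Interferon effectors were also higher with N1 in DMSO, often by more. In DMSO 1266 genes were higher with N1 (7.75%) and 1139 lower (6.97%), and 40 of the 45 effectors rose there with a median of 0.74. N1 effects in erlotinib and in DMSO share no arrays, so their difference was tested in the same model. Over all genes this difference was positive for 1313 (8.04%) and negative for 986 (6.04%). Centering every array on the median of the genes tested moves that split, as the share of positive calls falls from 57.1% to 37.0%. The effect was smaller in erlotinib for 22 of the 45 effectors and larger for 2. IFI6, a mitochondrial antiviral protein, read 10.21, 9.68 and 10.23 with NTC in erlotinib and 10.91, 10.94 and 10.69 with N1. Its rise was 0.81 in erlotinib and 2.30 in DMSO, a difference of -1.49 (adjusted p = 0.000173). Its NTC mean was 10.04 in erlotinib and 8.38 in DMSO, while the N1 means were 10.85 and 10.68. The difference was -1.13 for IFI44L and -0.90 for RSAD2. IFIT1 had a difference of -0.77 (adjusted p = 0.0283), a call that was lost on leaving out single arrays, such as the third N1 array in DMSO (-0.59, adjusted p = 0.0728). OAS2 rose by 2.51 in DMSO, and its difference of -0.50 did not pass (adjusted p = 0.0859, standard error 0.19), though it did with the replicate number as a block in DMSO (adjusted p = 0.049). STING1 went the other way, with -0.01 in DMSO and a difference of 0.48 (adjusted p = 0.000619).

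Many genes of sterol synthesis rose with N1 in erlotinib. Cholesterol is built from acetyl-CoA through mevalonate, squalene and lanosterol, and the enzymes are known as targets of the factor SREBF2. Of 20 sterol genes tested, 13 rose in erlotinib and none fell, with a median of 0.23. However, 1 fell under 3 of 9 other settings, among them centering and quantile normalization. In DMSO 4 rose and 3 fell, with a median of 0.01, and the difference was positive for 13 and negative for 1. MSMO1, which demethylates sterol intermediates, read 7.55, 7.6 and 7.65 with NTC and 8.44, 8.54 and 8.63 with N1. The rise was 0.94 (standard error 0.05, adjusted p = 9.1e-09) against 0.27 in DMSO, and the difference was 0.66 (adjusted p = 9.11e-05). SQLE, the squalene epoxidase, read 7.59, 7.54 and 7.61 with NTC and 8.33, 8.41 and 8.43 with N1, a rise of 0.81 (adjusted p = 5.01e-09). The groups were tight and did not overlap. In DMSO the value was 0.09 (adjusted p = 0.158), at a level of 9.05 with NTC, so the N1 mean of 8.39 in erlotinib lay between the NTC means of the treatments. DHCR7, which makes cholesterol in its last step, rose by 0.74 in erlotinib (adjusted p = 3.83e-08) and had 0.05 in DMSO. CYP51A1, the lanosterol demethylase, rose by 0.58, HMGCS1 by 0.47, IDI1 by 0.38 and SREBF2 itself by 0.27. INSIG1, which retains SREBF factors in the endoplasmic reticulum, had -0.15 and did not pass. The sterol response element core was searched on both strands as ATCAC, any 1 base and CCAC. It was found in 1 of 18 sterol genes in the promoter table (5.56%) and in 0.18% of the tested genes there. No sterol promoter is printed here.

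Of 13 fatty acid synthesis genes tested, 7 rose in erlotinib and none fell, with a median of 0.13, and 1 rose in DMSO. SCD, the desaturase that makes monounsaturated fatty acids, read 7.94, 7.83 and 7.97 with NTC and 8.79, 8.88 and 8.73 with N1. It rose by 0.89 (standard error 0.05, adjusted p = 1.35e-08), while in DMSO the NTC mean was 10.30 and the N1 mean 10.31. The difference between the N1 effects was 0.87 (adjusted p = 4.55e-06). FASN, the fatty acid synthase, rose by 0.35 and had -0.03 in DMSO, and SREBF1, the factor named for this branch, rose by 0.31 and had -0.05. ME1, which supplies NADPH, rose by 0.29 in erlotinib and by 0.28 in DMSO.

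**Figure D3:**
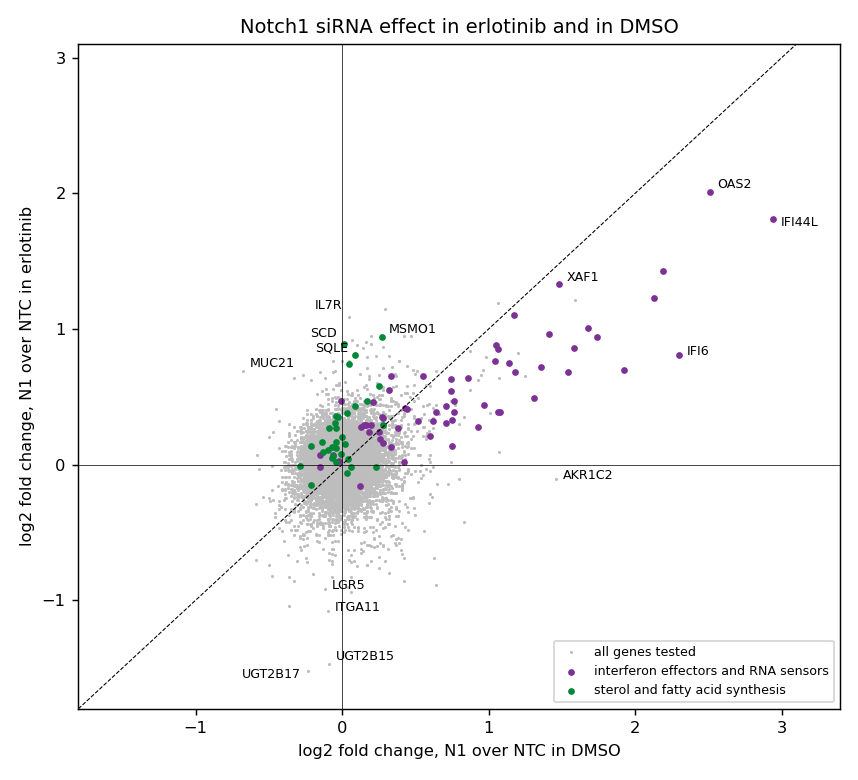
Log2 fold change of N1 over NTC in DMSO (x axis) against that in erlotinib (y axis) for the 16336 genes tested, with interferon effectors and RNA sensors in purple, sterol and fatty acid genes in green and equal effects on the dashed line. Single genes to find are IFI44L far to the right and upward (2.94 in DMSO and 1.81 in erlotinib), SCD above the origin (0.01 and 0.89) and UGT2B15 below it (-0.09 and -1.47).

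The genes that fell most with N1 were the glucuronosyltransferases UGT2B17 and UGT2B15, which conjugate steroids and other lipophilic compounds for excretion. UGT2B15 read 10.40, 10.33 and 10.31 with NTC and 8.83, 8.80 and 8.99 with N1. It fell by 1.47 on the log2 scale (standard error 0.05, adjusted p = 8.01e-11), and NTC was higher by a fold change of 2.78. UGT2B17 read 8.44, 8.29 and 8.38 with NTC and 6.59, 6.81 and 7.14 with N1, and it fell by 1.52 (standard error 0.12, adjusted p = 3.22e-07). The N1 arrays of UGT2B17 were more scattered than its NTC arrays, but no array of one group reached the other. The coding sequences of these genes are similar enough that probes may share signal, so they are not independent readings. In DMSO both were far lower, with NTC means of 5.35 and 4.21, and the N1 effects there were -0.09 and -0.23 (adjusted p = 0.289 and 0.223). The UGT2B17 mean lay below the medians of the NTC arrays in DMSO (4.87 to 4.95), so it says little about an effect there. The differences between the effects were -1.39 and -1.30, and that of UGT2B17 carries the same limit.

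ITGA11, an integrin subunit for collagen, read 7.56, 7.32 and 7.47 with NTC and 6.38, 6.44 and 6.28 with N1, and it fell by 1.08 (adjusted p = 7.84e-09). PSG8, a member of the pregnancy-specific glycoproteins, fell by 1.04 (adjusted p = 9.08e-07), from 8.23 ± 0.15 to 7.18 ± 0.09 (SD, n = 3). Its family is nearly identical in sequence, so the reading may include relatives. LGR5, a receptor for R-spondins and a marker of epithelial stem cells, read 9.88, 9.86 and 9.88 with NTC and 8.88, 8.94 and 9.04 with N1. The NTC arrays were almost equal and every N1 array was lower, by 0.92 on average (adjusted p = 1.92e-05). In DMSO LGR5 had means of 6.05 with NTC and 5.93 with N1, and the difference was -0.80 (adjusted p = 0.00416). MMP2, a gelatinase that degrades basement membrane, read 8.54, 8.44 and 8.41 with NTC and 7.6, 7.65 and 7.56 with N1 and fell by 0.86 (adjusted p = 1.11e-08). It fell by 0.33 in DMSO, with a difference of -0.53. FAM155A-IT1, named as an intronic transcript of its host gene, fell by 0.90 (adjusted p = 0.00106).

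Several lowered features are named for microRNA genes. MicroRNAs are short RNAs that pair through their seed, bases 2 to 8, with messenger RNAs and lower their output. The mature sequences are printed from RefSeq (GRCh38.p14) with the seed in capitals, because some of these chosen features share a seed or lie close together.
miR-181a-5p: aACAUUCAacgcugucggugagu
miR-181b-5p: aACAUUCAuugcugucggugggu
miR-450a-5p: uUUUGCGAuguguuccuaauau
miR-542-5p: uCGGGGAUcaucaugucacgaga
miR-421: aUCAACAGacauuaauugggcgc
The pair miR-181a-5p and miR-181b-5p has the seed ACAUUCA in common, and their genes MIR181A2 and MIR181B2 lie on chromosome 9 with 1173 bases between the entries. MIR181B2 read 6.41, 6.58 and 6.71 with NTC and 5.6, 5.71 and 5.58 with N1, and it fell by 0.94 (adjusted p = 0.000162). MIR181A2 fell by 0.67 (adjusted p = 0.000764). On the X chromosome, MIR450A1 and MIR450A2 both give miR-450a-5p and lie 97 bases apart, and MIR542 follows after 755 bases. MIR450A2 fell by 0.83, MIR450A1 by 0.81 and MIR542 by 0.82, with adjusted p values of 0.000592, 0.000182 and 0.000852. MIR421 read 6.75, 6.16 and 7.03 with NTC and 5.71, 5.87 and 5.78 with N1, a fall of 0.86 (adjusted p = 0.00573) with scattered NTC arrays. MIR181A2, MIR450A1 and MIR542 were named after their values were seen, as neighbors of genes the rule gave. The grouping by seed and position thus follows from that choice and is not a result. These features may detect the longer host transcripts, and the amount of mature microRNA was not measured. Of 8 genes of the RNA interference machinery, 3 fell, TNRC6C by 0.30, PRKRA by 0.25 and DROSHA by 0.17, and none rose. After quantile normalization 2 rose, and 1 rose in 1 of the 6 fits that left out an array.

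Some of the higher rises were in genes of surface receptors, lung differentiation and secretion. IL7R, the interleukin 7 receptor, read 5.40, 5.46 and 5.6 with NTC and 6.53, 6.6 and 6.61 with N1, a rise of 1.09 (standard error 0.07, adjusted p = 1.11e-08). In DMSO the NTC mean was 6.55 and the N1 mean 6.6, so the N1 arrays in erlotinib sat at the level seen in DMSO. The difference between the effects was 1.05 (adjusted p = 4.8e-06). LAMP3, a lysosomal membrane protein of alveolar type II and dendritic cells that interferon also induces, rose by 1.19 in erlotinib and by 1.06 in DMSO, from 5.46 ± 0.13 to 6.66 ± 0.14 in erlotinib (SD, n = 3). GATA6, a factor of lung endoderm, rose by 0.69 and 0.64. PIGR, which carries IgA across epithelium, rose by 0.88 in erlotinib (6.75 ± 0.08 to 7.63 ± 0.07, SD, n = 3) and had 0.10 in DMSO. Of 20 mucins and secreted airway proteins, 10 rose and 3 fell, with a median of 0.15. MUC1 rose by 0.66, from 7.47, 7.38 and 7.41 to 8.07, 8.09 and 8.08. MUC21, another membrane mucin, rose by 0.69 in erlotinib and fell by 0.68 in DMSO, and its difference of 1.37 (adjusted p = 3.37e-07) was the highest of all genes tested. CEACAM5 rose by 0.51. SLPI, MUC12 and CEACAM6 were the members that fell, by 0.26, 0.20 and 0.12. Of 21 alveolar and airway differentiation genes 9 rose, among them NAPSA (0.46), CAV1 (0.46) and SFTPB (0.26), and LPCAT1 fell by 0.21, while NKX2-1 had -0.03.

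Junction and keratin genes of epithelium rose in 14 of 27 cases and fell in none, with a median of 0.16. However, 1 fell under 4 of 9 other settings, among them centering and quantile normalization. In 1 of the 6 fits that left out an array, 2 fell. OCLN, a tight junction protein, rose by 0.42 (adjusted p = 4.48e-05) and CDH1, which encodes E-cadherin, read 10.72, 10.69 and 10.67 with NTC and 10.99, 11.05 and 11.08 with N1, a rise of 0.35 (adjusted p = 3.18e-05). CLDN3 rose by 0.34 in erlotinib and fell by 0.27 in DMSO. EPCAM had -0.12 and did not pass. Mesenchymal genes were mixed, with 2 of 12 higher and 3 lower, against 11.9% and 9.15% over all genes tested. VIM, the intermediate filament of mesenchymal cells, read 10.67, 10.57 and 10.65 with NTC and 10.22, 10.27 and 10.27 with N1, and it fell by 0.38 (adjusted p = 2.38e-05). The repressor gene SNAI2 fell by 0.23, whereas SPARC, a matrix protein, rose by 0.49 (adjusted p = 2.59e-07) and FN1 by 0.20.

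Targets of YAP, the coactivator that responds to cell contact and tension, rose in 13 of 22 cases, with ASAP1 the member that fell, by 0.27, and a median of 0.22. IGFBP3, which binds insulin-like growth factors, read 9.60, 9.57 and 9.57 with NTC and 10.41, 10.46 and 10.48 with N1, a rise of 0.87 (standard error 0.05, adjusted p = 5.21e-09). CCN2, a matricellular protein, read 8.80, 8.58 and 8.75 with NTC and 9.31, 9.36 and 9.22 with N1, a rise of 0.59 (adjusted p = 1.01e-05). Tissue factor, encoded by F3, rose by 0.58, and ANKRD1 rose by 0.35 in erlotinib and by 0.83 in DMSO. In DMSO 12 of the 22 YAP targets rose, with a median of 0.23. Of the 9 genes that the study names from these arrays and that were tested, 8 rose with N1 in erlotinib. Since the study chose them on these samples, that count is not independent evidence of their direction. MMP7, a matrix metalloproteinase of secretory epithelium, read 9.69, 9.62 and 9.66 with NTC and 10.19, 10.28 and 10.27 with N1, a rise of 0.59 (adjusted p = 9.41e-07), and 0.57 in DMSO. GADD45A, a stress gene that p53 can induce, rose by 0.70 in erlotinib and 0.96 in DMSO, GADD45B by 0.49 and 0.52, and GADD45G had 0.18 in erlotinib and did not pass. HBEGF rose by 0.33.

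Matrix genes were split by member. ABI3BP, a secreted matrix protein, had the smallest p value among genes that rose. It read 5.68, 5.69 and 5.74 with NTC and 6.82, 6.85 and 6.90 with N1, a rise of 1.15 (standard error 0.04, adjusted p = 8.01e-11) against 0.29 in DMSO. In DMSO its NTC arrays read 4.73, 4.65 and 4.62, below the medians of their arrays, so the effect there may be understated. Of 18 laminins and matrix glycoproteins 7 rose, also with FBN2 (0.58), AGRN (0.44) and HSPG2 (0.34), and 4 fell, LAMB1 by 0.52, VCAN by 0.49, FBN1 by 0.48 and TNC by 0.41. Of 19 collagens, COL12A1 rose by 0.23, and COL4A3, COL1A2 and COL4A4 fell by 0.30, 0.28 and 0.27. The shares over all genes tested were 11.9% higher and 9.15% lower. Integrin subunits rose in 7 of 16 cases. ITGB3, a subunit of the vitronectin receptor, rose by 0.60 (adjusted p = 8.85e-06), from 6.66, 6.49 and 6.41 to 7.12, 7.14 and 7.10, and ITGA2 by 0.36. Besides ITGA11, ITGB5 fell, by 0.17. Most of the 31 TGF-β ligands, receptors and SMADs did not pass. INHBA and INHBB, the activin chains, rose by 0.44 and 0.35, and their antagonist FST by 0.33.

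Receptors and feedback of growth factor signaling changed in a few members. In the ERBB list 4 of 9 rose and none fell, and in DMSO none passed. ERRFI1, a feedback inhibitor of EGFR, read 8.34, 8.32 and 8.36 with NTC and 8.77, 8.93 and 8.96 with N1. It rose by 0.55 (adjusted p = 1e-06) and had -0.01 in DMSO, where the NTC mean was 10.26. ERBB3 rose by 0.30 and the ligand TGFA by 0.27, and EGFR itself had 0.10 and did not pass. Among other receptor kinases and their ligands, KIT, the stem cell factor receptor, fell by 0.60 (adjusted p = 1.09e-05) and GAS6, the ligand of AXL, by 0.56 (adjusted p = 3.62e-06), while MET rose by 0.37 and AXL by 0.29. Of 21 ERK output genes, 6 rose and 1 fell, and the ERK phosphatase DUSP6 had 0.01. SPRY2, a Sprouty inhibitor, rose by 0.31.

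**Figure D4:**
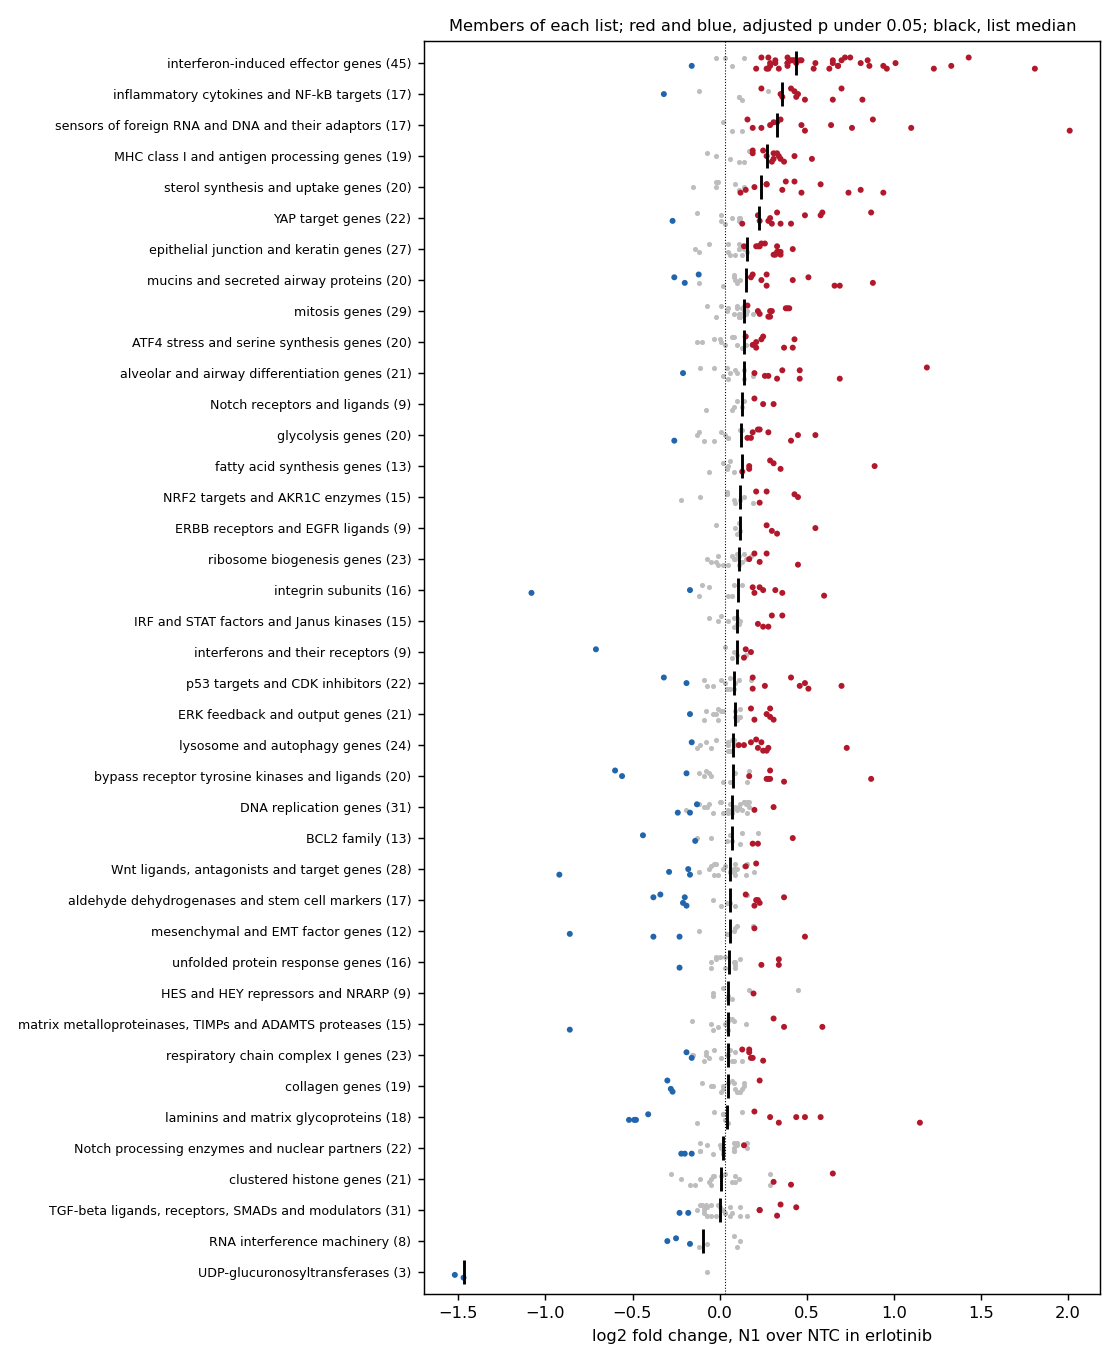
Log2 fold change of N1 over NTC in erlotinib (x axis) for the tested members of each gene list (rows, number tested in parentheses), with called members in red or blue, others in gray, the list median as a black bar and the median of all genes (0.03) as a dotted line. Cell type markers, lists with fewer than 3 tested genes and the genes the study names are not drawn. Of the lists drawn, interferon effectors have the highest median (0.44) and the 3 UDP-glucuronosyltransferases the lowest (-1.47).

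Cell division genes moved slightly upward in part. Of 29 mitosis genes 10 rose and none fell, with a median of 0.14, and none passed in DMSO. TPX2, a spindle assembly factor, read 7.71, 7.65 and 7.66 with NTC and 8.03, 8.06 and 8.12 with N1, a rise of 0.40 (adjusted p = 1.06e-05). KIF23 rose by 0.39, TTK by 0.38 and MKI67 by 0.23. These levels stayed far below DMSO, where TPX2 had an NTC mean of 10.44. Of 31 DNA replication genes, 2 rose, CDC6 by 0.31 and MCM10 by 0.20, and 3 fell, PRIM1 by 0.24, MCM7 by 0.17 and CCNE1 by 0.13. Over all genes tested the shares were 11.9% and 9.15%, so these counts show nothing particular to the list. Of 21 clustered histone genes 3 rose, with H2BC12 the highest (0.65, adjusted p = 4.88e-06), and these genes are near copies whose probes may share signal. Among p53 targets and CDK inhibitors 8 of 22 rose and 2 fell. The death receptor FAS read 6.54, 6.48 and 6.54 with NTC and 7.03, 6.98 and 7.09 with N1, a rise of 0.51 (adjusted p = 1.48e-07), and GDF15 rose by 0.46. MDM2 had 0.04 and did not pass. In the BCL2 family, the pro-apoptotic BMF fell by 0.44 (adjusted p = 0.000132) and BCL2L11 by 0.14, whereas the pro-apoptotic PMAIP1 rose by 0.42 and the protective BCL2L1 by 0.22.

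Among metabolic and stress genes, 9 of 20 glycolysis genes were higher and 1 was lower in erlotinib, against 1 higher and 3 lower in DMSO. HK2, which traps glucose as its phosphate, read 6.42, 6.35 and 6.46 with NTC and 6.94, 7.07 and 6.86 with N1, a rise of 0.55 (adjusted p = 1.65e-05). LDHA rose by 0.45 and the glucose transporter gene SLC2A1 by 0.41, and TPI1 fell by 0.26. The difference between the N1 effects was positive for 9 glycolysis genes and negative for none. ATF4 and serine synthesis genes rose in 9 of 20 cases with none lower, or 1 lower once arrays were centered or quantile normalized, led by SLC7A5 (0.43) and SHMT2 (0.42). NRF2 targets and AKR1C enzymes rose in 5 of 15 cases in erlotinib and in 13 of 15 in DMSO, with medians of 0.12 and 0.33. AKR1C2, a steroid reductase, read 4.58, 4.68 and 4.65 with NTC and 4.51, 4.54 and 4.52 with N1 in erlotinib, a log2 fold change of -0.11 (adjusted p = 0.325). In DMSO it rose by 1.46, and the difference of -1.57 (adjusted p = 3.97e-07) was the lowest of all genes tested. The AKR1C2 feature passed the noise filter only through the N1 arrays in DMSO. Its readings in erlotinib all lay below the medians of their arrays, so they say little about an effect there. ASS1, an enzyme of arginine synthesis, rose by 0.64 in erlotinib and fell by 0.33 in DMSO. PLAU, the urokinase gene, read 8.65, 8.65 and 8.54 with NTC and 9.27, 9.27 and 9.28 with N1, rose by 0.66 (adjusted p = 1.11e-08), and fell by 0.27 in DMSO.

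The counts of the remaining lists are to be read against the shares over all genes tested, 11.9% higher and 9.15% lower. Lysosome and autophagy genes rose in 10 of 24 cases, with CTSS, an antigen-processing protease, the highest at 0.73, and 1 fell. Respiratory chain complex I genes rose in 6 of 23 cases and fell in 2, ribosome biogenesis genes rose in 5 of 23 and unfolded protein response genes rose in 3 of 16 and fell in 1. Of 28 Wnt ligands, antagonists and targets, 2 rose, WNT5A by 0.21 and RNF43 by 0.15, and 4 fell, LGR5, DKK1 (by 0.29), DKK3 (by 0.18) and APC (by 0.17), while CTNNB1, which encodes β-catenin, had -0.12 and did not pass. Of 17 aldehyde dehydrogenases, transporters and stem cell markers 6 rose and 5 fell, with ALDH2 the highest (0.37) and ABCC1 the lowest (-0.38). HIF1A-AS2, named as an antisense RNA of HIF1A, rose by 1.21 (adjusted p = 3.95e-05), from 5.48, 5.39 and 5.35 to 6.43, 6.48 and 6.94, while the HIF1A feature had 0.05 (adjusted p = 0.512).

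Genes called in erlotinib were only partly those called in DMSO. Of the genes higher with N1 in erlotinib, 447 were also called higher in DMSO, which is 23% of the erlotinib list and 35.3% of the DMSO list. Over all genes tested, 7.75% were higher in DMSO and 11.9% in erlotinib. For lower genes the overlap was 305, or 20.4% and 26.8%, against 6.97% of all genes lower in DMSO and 9.15% in erlotinib. The sign in DMSO was the same for 60% of the genes higher and 65% of those lower in erlotinib. A further 71 genes higher and 62 genes lower in erlotinib were called the other way in DMSO. Across the 16336 genes the log2 fold changes in the treatments had a Pearson correlation of 0.183, a description over genes that are not independent replicates.

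Values with N3 in erlotinib are set beside those with N1 for some members, with the reminder that both comparisons use the same 3 NTC arrays. The log2 fold change was 2.01 with N1 and 1.44 with N3 for OAS2, 1.81 and 1.78 for IFI44L, and 1.23 and 0.94 for RSAD2. UGT2B15 had -1.47 with N1 and -0.97 with N3, and ITGA11 had -1.08 and -1.84. IGFBP3 (0.87 and -0.66) and ITGB3 (0.60 and -0.60) had values on opposite sides of 0. The study selected genes for higher values with N1 and lower values with N3 on these arrays, so such a pattern in the genes it names is no independent result. Among those, CCN2 (0.59 and -0.91), MMP7 (0.59 and -0.43), GADD45B (0.49 and -0.44), ANKRD1 (0.35 and -0.28), HBEGF (0.33 and -0.19) and ABI3BP (1.15 and -0.15) had opposite signs. GADD45A (0.70 and 0.61), SAMD9L (1.01 and 0.63) and GADD45G (0.18 and 0.05) had values above 0 with both. For the sterol genes they were 0.81 and -0.11 with SQLE and 0.74 and -0.26 with DHCR7, and for LGR5 -0.92 and -0.02.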

How the data were processed

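The deposited values are log2 expression, which the authors made from GeneChip Human Transcriptome Array 2.0 intensities with Affymetrix Expression Console and RMA (background correction, normalization between arrays, summary over probes). Software versions were not given in the sources used here. RMA compresses low signals, so small changes of weakly expressed genes are understated. Scanner files were not used here.

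Gene names came from the array annotation, in which 23781 features name 1 gene, 1543 several and 45199 none. Of the features with 1 gene, 21497 were matched by gene ID to the RefSeq table. Features above the 50th percentile of their array on at least 3 arrays were kept, as 37493 were, and the feature of the highest mean stood for its gene. All 18 arrays entered 1 limma model (limma 3.58.1, R 4.3.3) of the 6 group means, with default empirical Bayes and Benjamini-Hochberg adjustment over 16336 genes. The difference between N1 effects was the contrast of contrasts. Replicate numbers were checked as pairs through the correlation of deviations from the group means, which was 0.687, 0.243 and 0.493 for same-numbered N1 and NTC arrays in DMSO and -0.16, 0.0146 and 0.137 in erlotinib. The second N1 array in DMSO correlated more with the third NTC array (0.354) than with the second, so pairing there was not established. A replicate block in DMSO alone was therefore used only as an alternative. In data simulated on these arrays, 50 of the 16336 genes were moved at each fold of 1.2, 1.5, 2 and 3. Noise was drawn independently for each gene and array. Of genes moved by a fold of 1.2, 54% were recovered, and of those moved by 1.5, 94%, with 10 false among 184 calls. In the data 21.1% of genes were called and shifts of whole arrays can occur, so these rates do not carry over to the data.

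Members and the 45 gene lists (951 genes, 757 tested) were chosen with earlier results of these data known, and 2 further lists were added after values were seen. Genes were named if they passed the Methods thresholds, were among the 10 highest or lowest called genes without overlap or the 5 highest or lowest differences, belonged to the Notch lists or the study's own genes, or led a list, up to 4 for each list. Other members were named after their values were seen. Alternatives varied the noise filter, the features, the arrays in the model, the scaling, the variance prior and the replicate block, and left out each array.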

Additional observations from a re-analysis of the deposited data

Results flagged for a closer look

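The values here are differences between the N1 effect in erlotinib and that in DMSO, on the log2 scale, for named genes in which this difference itself passed limma's test (adjusted p under 0.05 over 16336 genes). The effects share no arrays, and no explanation was tested. The N1 effect was higher in erlotinib by 1.37 for MUC21, 1.05 for IL7R, 0.96 for ASS1, 0.93 for PLAU, 0.86 for ABI3BP and 0.78 for PIGR. For lipid synthesis it was higher by 0.87 for SCD, 0.72 for SQLE, 0.70 for DHCR7, 0.66 for MSMO1, 0.38 for FASN and 0.36 for SREBF1. It was also higher by 0.76 for HLA-DRA, 0.62 for CLDN3, 0.55 for ERRFI1, 0.48 for STING1 and 0.22 for NOTCH1. The NTC arrays of ABI3BP in DMSO read below the medians of their arrays.

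Differences below 0 were -1.57 for AKR1C2, -1.39 for UGT2B15, -1.30 for UGT2B17, -0.80 for LGR5, -0.53 for MMP2, -0.48 for ANKRD1 and -0.26 for GADD45A, whose call was lost with a replicate block over 15 arrays (adjusted p = 0.0707) or over the compared arrays (adjusted p = 0.081). Among interferon effectors they were -1.49 for IFI6, -1.13 for IFI44L, -0.90 for RSAD2 and -0.77 for IFIT1. The microRNA features MIR548W and MIR548A2 had -1.53 and -1.32. MIR548W read 7.40, 6.75 and 6.98 with NTC and 5.94, 5.77 and 6.75 with N1 in erlotinib, so the highest N1 array and the lowest NTC array read alike. AKR1C2 passed the noise filter only through its N1 arrays in DMSO. The NTC mean of UGT2B17 in DMSO lay below the medians of those arrays.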

How the results depend on the processing

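The thresholds of the study's Methods left 11 higher and 4 lower genes in place of 1944 and 1495. Of the 1944 and the 1495 genes, 1370 and 1070 were also called the same way with the model limited to the arrays compared. Leaving out 1 array gave 1270 to 2076 higher and 923 to 1540 lower genes, and 10 to 13 and 3 to 6 at the Methods thresholds. The higher count was 1270 without the second N1 array in erlotinib, and the lower count was 923 without the first, 953 without the first NTC array and 958 without the third. For the difference between N1 effects (1313 positive, 986 negative), the counts were 637 and 458 with only the arrays compared and 691 and 589 with these and a replicate block. They ran from 632 to 2637 and from 432 to 1878 on leaving out 1 array, and 1584 were negative with arrays centered on the median. Centering also moved the share of higher calls in erlotinib from 56.5% to 47.5%. With the replicate number as a block, 1774 genes were higher and 1338 lower over 15 arrays, and 1493 and 1115 over the arrays compared. In DMSO same-numbered arrays correlated, though pairing was not established. A block there alone (chosen after seeing the data) gave 1361 higher and 1250 lower genes in place of 1266 and 1139, and 1604 positive and 1174 negative differences. A block over all compared arrays gave 863 and 654 in DMSO. The block in DMSO alone ended none of the 30 differences given for named genes.

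Of 172 named genes called in erlotinib, 147 were called under every alternative and 25 were lost under some, with adjusted p values up to 0.209, of which 6 were lost only on leaving out an array. Those 25 were APC, APH1B, BCL2L11, CCNE1, CEACAM6, COL12A1, DKK3, DROSHA, HEYL, IFNAR2, IFNGR1, IFNGR2, IL18, ITGB5, MCM10, MCM7, MIR548A2, MIR548W, MKI67, MUC12, NCSTN, PRIM1, RNF43, TRIM5 and WNT5A. Of the 30 differences given for named genes, those of NOTCH1, IFIT1 and GADD45A were lost under some alternative. No called value changed sign. Values that did not pass and changed sign on leaving out 1 array ran from -0.08 to 0.09 for DUSP6, -0.05 to 0.00 for GBP2, -0.02 to 0.09 for HIF1A, -0.01 to 0.05 for IFI16, -0.04 to 0.08 for IFNAR1, -0.01 to 0.08 for ISG20 and -0.05 to 0.00 for NKX2-1. DUSP6 also had -0.01 with arrays centered.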

Other observations

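The following groups were chosen after their values were seen and carry no test as groups. Of 26 protocadherin genes, which encode adhesion molecules best known from neurons, 24 were tested, 18 fell with N1 in erlotinib and none rose, with a median of -0.49. In DMSO none was called. PCDHGA10 read 7.81, 7.35 and 7.94 with NTC and 6.95, 7.05 and 6.94 with N1, a log2 fold change of -0.72. PCDHB12 read 8.10, 8.06 and 8.25 with NTC and 7.34, 7.49 and 7.49 with N1, a log2 fold change of -0.70. Transcripts of the γ cluster share their last exons, so features may share signal.

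Of 10 tested MHC class II genes, whose products present peptides to helper T cells, 6 rose in erlotinib and none fell, and in DMSO none rose and 4 fell, of which HLA-DPA1 no longer passed with a replicate block there (adjusted p = 0.0574). HLA-DRA read 8.13, 7.84 and 7.98 with NTC and 8.72, 8.79 and 8.71 with N1 in erlotinib, a rise of 0.76. HLA-DPA1 rose by 0.44, and CIITA, the activator of class II genes, had 0.10 and did not pass.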
